A study of Sus scrofa with 12 samples.

Results

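Genes for receptors of estrogen, progesterone and corticosteroids were examined in whole-ovary RNA of 12 gilts (sows before their first litter; Sus scrofa, New French Yorkshire breed), with the left ovary of each animal sequenced. The genes are the estrogen receptors ESR1 and ESR2, the progesterone receptor PGR, the glucocorticoid receptor NR3C1, the mineralocorticoid receptor NR3C2, the membrane-associated progesterone-binding proteins PGRMC1 and PGRMC2, and the G protein-coupled estrogen receptor GPER1. They were chosen by name, and where a name stood on several rows of the deposited table the row with the highest mean count stood for the gene. Of the 8 genes, 7 had a row that carries exactly their name, out of 29150 loci in all. ES denotes 6 gilts that had shown consecutive estrus cycles and were slaughtered in the third estrus. NES denotes their 6 littermates, each a full sister, that had shown no estrus; the cycle stage of their ovaries and the ages at slaughter are not given in the labels. All 12 animals came from litters of the same purebred nucleus, and no genotype or treatment separates the groups. Each library is a separate gilt, so the p-values measure the spread between gilts. Title numbers are not stated to mark litters, so the main test had no term for the kinship of sisters. The RNA was total RNA depleted of ribosomal RNA from tissue of mixed cells, so fewer cells of a type and less RNA per cell cannot be told apart.

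ESR1, ESR2, PGR, NR3C1 and NR3C2 are nuclear receptors, which bind a steroid, then bind DNA and recruit coregulators to change transcription. PGRMC1, PGRMC2 and GPER1 are not members of that family and sit in membranes. In the mammalian ovary ESR2 is the main estrogen receptor of granulosa cells, while ESR1 is found mostly in theca, stroma and surface epithelium. PGR is induced in granulosa cells by the surge of luteinizing hormone (LH) and is needed for follicle rupture in mice. Glucocorticoids reach the ovary from the adrenal, and NR3C1 is found in most cell types.

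The libraries held 58140547 to 68961955 counts. Levels are CPM, counts scaled to a common library size by TMM factors, and the test of each difference is edgeR's quasi-likelihood test over 20421 loci with a mean deposited FPKM of at least 0.5, with Benjamini-Hochberg adjusted p called under 0.05. The granulosa markers FSHR and CYP19A1 and the oocyte markers GDF9 and BMP15 were detected in all 12 libraries. Some ES libraries stood apart in marker genes of other cell types. The 6 macrophage markers summed to 992 CPM in ES3 and to 48.8 to 125 CPM in the other libraries. The 5 markers of surface and ductal epithelium summed to 232 CPM in ES6 and to 3.06 to 17.3 CPM in the others. The ciliated cell factor FOXJ1 was at 121 CPM in ES6 and at 0 to 0.30 CPM in the others. Only 2 of these 5 markers passed the FPKM filter without ES6, so a high sum in ES6 was partly fixed by the filter. The sum of the 9 granulosa markers was highest in ES1 (5634 CPM) and ES6 (5084 CPM) and lowest in ES3 (691 CPM), with 1205 to 3785 CPM in NES. Single markers did not all follow the sum, as FSHR was at 39.4 CPM in ES1 and 13.9 CPM in ES6, against 41.7 to 97.8 CPM in NES. Where leaving out a library moved a receptor's difference by over 1.5 times, the value without it, or the range with each library left out in turn, is given.

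Of the 7 receptor rows 0 were called in the ES against NES comparison with edgeR, where 0.945% of all tested loci were (0.152% higher and 0.793% lower in ES). Those with an unadjusted p under 0.05 were ESR2, lower in ES, and PGR, higher in ES, against 16.3% of all loci. DESeq2 called ESR2 alone among the 7, with 5.43% of its tested loci called (2.37% higher and 3.06% lower in ES). With limma 0 of the 7 were called, against 1.62% of all loci (0.0832% higher and 1.53% lower in ES). No receptor row had groups that did not overlap, as 1.42% of all tested loci had.

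ESR2 (MSTRG.1555, plus strand, chromosome 1, 193824791 to 193904638 on Sscrofa11.1), the estrogen receptor beta, had the smallest p-value of the receptors. It ranged between 0.69 and 2.40 CPM in ES, with a median of 2.00, against 2.15 to 4.84 CPM in NES, with a median of 3.78. The 5 highest libraries were all NES, and the lowest was ES3. The ranges overlapped only through ES2, ES4 and ES5, which lay at 2.19 to 2.40 CPM, and NES6 at 2.15 CPM. The mean was 1.83 ± 0.64 CPM in ES, against 3.62 ± 1.07 CPM in the NES gilts (SD, n = 6 per group). The log2 difference was -0.98 ± 0.30 (SE), which did not pass (edgeR, adjusted p = 0.133). DESeq2 gave -0.99 ± 0.30 with an adjusted p of 0.0260. The adjusted p with a library left out ran between 0.0913 and 0.271. Without ES1, ES3 and ES6 the log2 difference was -0.65 (adjusted p = 0.325).

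ESR2 rested on few reads, 44 to 141 counts per ES library and 135 to 320 per NES library. Of the 9 tested granulosa markers, 5 had positive and 4 negative log2 differences (median 0.16) and 0 were called by edgeR, with 3 at an unadjusted p under 0.05, all negative. FSHR, the granulosa receptor for follicle-stimulating hormone, was among the negative ones, at 9.33 to 55.1 CPM in ES and 41.7 to 97.8 CPM in NES, and CYP19A1 among the positive ones. Without ES6 the median of the 9 was -0.34. A list of 5 cell cycle genes, which proliferating granulosa cells express, summed to 36.2 to 103 CPM in ES and 73.0 to 379 CPM in NES, and of these TOP2A, CCNB1, BUB1 and CDK1 fell (edgeR, adjusted p = 0.0371 to 0.0497), against 0.793% of all loci called lower. With the replicate number as a block, or without ES2, ES4, NES1, NES3, NES4 or NES5, 0 loci of the whole table were called, these included. Without ES6 or NES2, 0 loci were called lower, so these calls were lost there too. The part of the granulosa markers and cell cycle genes in the ESR2 difference was not tested.

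ESR1, the estrogen receptor alpha, lay on 5 rows. The row chosen by the naming rule (MSTRG.227, chromosome 1, 14350597 to 14373486) holds an assembled transcript on the plus strand inside the gene. The annotated ESR1 transcripts are on the minus strand, in a row joined with the neighbouring CCDC170 (MSTRG.224, chromosome 1, 14217036 to 14750972). The chosen row lay between 25.8 CPM (ES3) and 120 CPM (ES6) in ES, with a median of 67.7, against 68.5 to 132 CPM in NES, with a median of 96.1. ES1, ES3 and ES5 were below every NES library, and the groups overlapped. The ES gilts averaged 69.4 ± 33.8 CPM and the NES gilts 97.6 ± 24.5 CPM (SD, n = 6 per group), with a log2 difference of -0.49 ± 0.31 (adjusted p = 0.462).

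The joined annotated row was at 120 to 539 CPM in ES (median 301) and 327 to 466 CPM in NES (median 397). Its log2 difference was -0.38 ± 0.28 (adjusted p = 0.526), and ES6 was above every NES library while 4 ES libraries were below all of them. Counts of CCDC170 cannot be separated from those of ESR1 in it. The 3 further ESR1 rows had log2 differences of -0.52, -0.51 and -0.49, and none passed. The ES libraries at both ends were those that stood apart in marker genes, with ES3 lowest and ES6 highest in both rows. The chosen row changed to -0.32 without ES3 and to -0.72 without ES6, and neither passed. Of the 6 tested theca markers, 4 had negative and 2 positive log2 differences, from -2.37 to 2.00 with a list median of -1.43. PTCH1, GLI1 and HHIP fell (edgeR, adjusted p = 0.0337 to 0.0387), against 0.793% of all loci called lower. These 3 calls were lost with the block. They were also lost without ES2, ES4, ES6, NES1, NES2, NES3, NES4 or NES5, where 0 loci were called lower. The same held without ES1, ES3 and ES6 together. The 6 markers summed to 113 CPM (ES3) to 1949 CPM (ES6) in ES and 709 to 1284 CPM in NES. The median sums lay close together, with 1011 CPM for the ES group against 1037 CPM for the NES group. The summed list was thus not clearly lower in ES. Within ES the summed theca markers were lowest and highest in the same libraries as ESR1. The part of macrophage, epithelial and theca RNA in the ESR1 values was not tested.

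**Figure D1:**
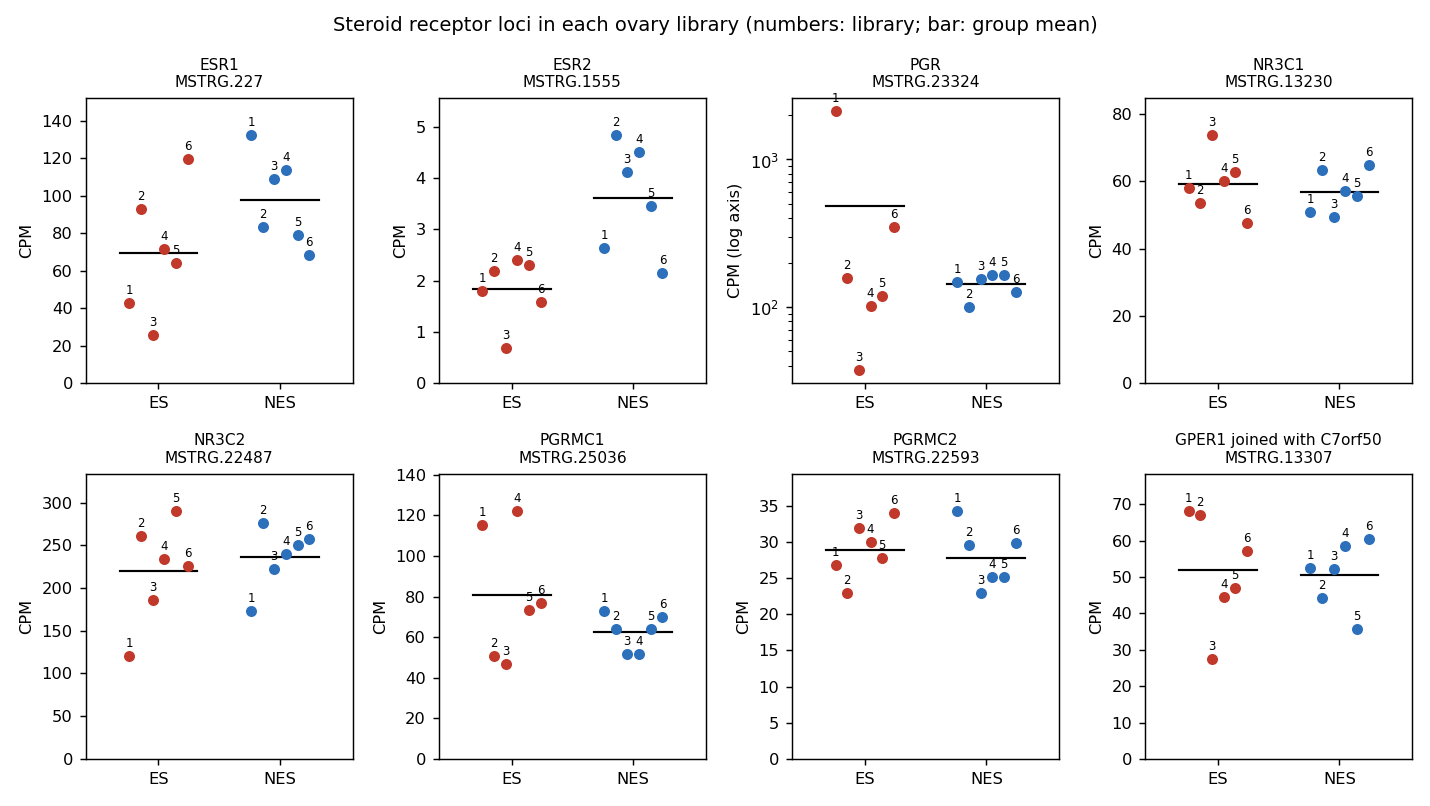
Each panel shows the CPM of the 6 ES and 6 NES libraries at a receptor row, with the library number above each point and a bar at the group mean; the PGR axis is logarithmic. ESR2 is lower in most ES libraries, ES1 holds 2135 CPM of PGR, and ES3 and ES6 are the lowest and highest ES libraries for ESR1.

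The level of ESR2 was set against the chosen ESR1 row, which is opposite in strand to the annotated ESR1 transcripts, as a ratio of deposited FPKM within a library. It ranged between 0.137 (ES6) and 0.435 (ES1) in ES and between 0.206 (NES1) and 0.601 (NES2) in NES. The ratio does not depend on scaling between libraries. Its groups overlapped, with ES6 below every NES library. The mean log2 ratio was -1.82 ± 0.59 in ES and -1.40 ± 0.52 in NES (SD, n = 6 each), a difference of -0.41 that an exact two-sided permutation test over 924 divisions did not separate from 0 (p = 0.236). With the joined annotated ESR1 row the ratio was 0.112 to 0.344 in ES and 0.214 to 0.495 in NES, and the log2 difference was -0.51 (exact permutation p = 0.108).

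PGR (MSTRG.23324, minus strand, chromosome 9, 32017248 to 32129221), the nuclear progesterone receptor, was set apart by a single ovary. ES1 held 2135 CPM, which was 6.11 times the next highest library (ES6, 349.7 CPM). The remaining ES libraries were ES2 with 157 CPM, ES5 with 119 CPM, ES4 with 102 CPM and ES3 with 37.2 CPM. NES libraries lay close together, at 99.97 to 166 CPM with a median of 150.4 CPM. ES1 and ES6 were thus above every NES library and ES3 below all of them.

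PGR averaged 483 ± 816 CPM over the ES gilts and 143 ± 25.4 CPM over the NES gilts (SD, n = 6 per group). The log2 difference of 1.76 ± 0.80 did not pass (edgeR, adjusted p = 0.300). Without ES1 it was 0.092 (adjusted p = 0.939), since the other 5 ES libraries averaged 153 ± 118 CPM. Without ES1, ES3 and ES6 it was -0.18 (adjusted p = 0.743), and limma on log2(FPKM + 0.5), which weighs a single high library less, gave 0.41 (adjusted p = 0.811). AREG, an epidermal growth factor family ligand that the LH surge induces in granulosa cells, was also highest in ES1, at 73.6 CPM against at most 1.10 CPM in any other library. AREG was not among the genes fixed by name and was chosen after its value was seen. Its list had 7 genes past the FPKM filter with all libraries and 6 without ES1, so a high value in ES1 was partly fixed by the filter. CYP19A1, the aromatase, stood at 466 CPM in ES1 and 1039.7 CPM in ES6, the 2 libraries with the most PGR, and at 12.3 to 213 CPM in the others. All 5 tested luteal markers had positive log2 differences (median 1.54, and 0.88 without ES1, ES3 and ES6), against 56.2% of all loci. In limma, with the replicate block and without ES6, 4 of the 5 were positive. With edgeR 0 were called and 4 had an unadjusted p under 0.05, against 16.3% of all loci. The 5 luteal markers summed to 538 to 3716 CPM in ES, highest in ES1 and then ES6, and 495 to 766 CPM in NES. The part of granulosa, luteal and epithelial RNA in the PGR values was not tested.

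NR3C1 (MSTRG.13230, minus strand, chromosome 2, 144822078 to 144931726), the glucocorticoid receptor, was among the steadiest of the receptors. It lay at 47.6 to 73.7 CPM in ES (median 58.9) and 49.3 to 64.7 CPM in NES (median 56.4). ES3 was above every NES library and ES6 below all of them, and the other 4 ES libraries lay within the NES range. The log2 difference was 0.061 ± 0.12 (adjusted p = 0.840), with a normal 95% interval of -0.17 to 0.29, and it ran between -0.016 (without ES3) and 0.12 (without ES6) with a library left out.

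NR3C2, the mineralocorticoid receptor, had a chosen row (MSTRG.22487, chromosome 8, 80315094 to 80423180) on the minus strand, opposite to the row that holds its annotated transcript (MSTRG.22486, plus strand, chromosome 8, 80303220 to 80669398). The chosen row lay at 121 to 290 CPM in ES (median 230) and 173 to 276 CPM in NES (median 245). ES1 was the lowest library and ES5 the highest, and the groups overlapped. The annotated row lay at 16.1 to 33.3 CPM in ES and 20.4 to 29.6 CPM in NES, again with ES1 lowest and ES5 highest. The log2 differences were -0.11 ± 0.19 (adjusted p = 0.824) for the chosen row and -0.10 ± 0.17 (adjusted p = 0.816) for the annotated row. The first had a 95% interval of -0.47 to 0.26. It ran between -0.20 (without ES5) and 0.0098 (without ES1) with a library left out, and was 0.15 without ES1, ES3 and ES6.

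PGRMC1 (MSTRG.25036, chromosome X, 97735307 to 97751097), a heme-binding protein through which progesterone acts on granulosa cell survival in rats, split the ES group. ES4 with 122 CPM, ES1 with 115 CPM, ES6 with 76.9 CPM and ES5 with 73.2 CPM were above every NES library, and ES2 with 50.6 CPM and ES3 with 46.6 CPM were below all of them. NES libraries lay between 51.7 and 72.9 CPM with a median of 63.9. The ES gilts averaged 80.8 ± 31.8 CPM and the NES gilts 62.3 ± 8.95 CPM (SD, n = 6 per group), and the log2 difference of 0.37 ± 0.23 did not pass (adjusted p = 0.449). It was 0.22 without ES4 and 0.24 without ES1. PGRMC2 (MSTRG.22593, chromosome 8, 96692823 to 96711116), its paralog, lay at 23.0 to 34.0 CPM in ES (median 28.9) and 22.9 to 34.3 CPM in NES (median 27.3), with all 6 ES libraries inside the NES range. Its log2 difference was 0.054 ± 0.13 (adjusted p = 0.874; 95% interval -0.19 to 0.30), and 0.0032 to 0.11 with a library left out.

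GPER1, the G protein-coupled estrogen receptor, had no row of its own and lay in a locus joined with C7orf50 (MSTRG.13307, chromosome 3, 710351 to 735217). The joined locus had 27.5 to 68.2 CPM in ES (median 52.0) and 35.8 to 60.5 CPM in NES (median 52.4), with ES3 lowest. These values cannot be given to GPER1 alone and were not read as a difference.

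**Figure D2:**
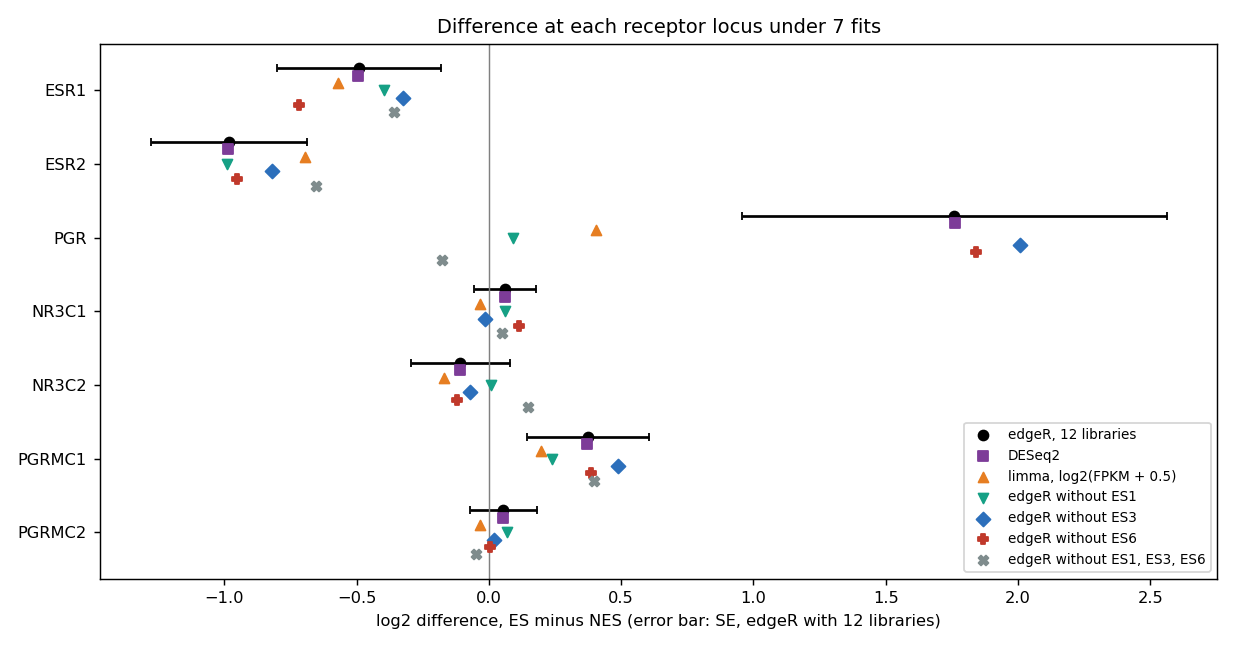
Log2 difference, ES minus NES, of the 7 receptor rows in edgeR with all 12 libraries (bar: SE), in DESeq2, in limma, and in edgeR without ES1, without ES3, without ES6 and without all 3 of them. PGR stands at 1.76 with all libraries and at 0.092 without ES1, while ESR1 and ESR2 stay below 0 in all 7 fits shown.

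Per length, the order of the rows with annotated transcripts was led by PGRMC1, with a median of 28.2 deposited FPKM over the 12 libraries (18.2 to 47.5). PGR followed with a median of 5.31 FPKM, PGRMC2 with 4.94, NR3C1 with 4.42, ESR1 joined with CCDC170 with 3.35, NR3C2 with 2.20, GPER1 joined with C7orf50 with 1.75, and ESR2 with 0.84. PGRMC1 was above PGR in 11 of 12 libraries, the exception being ES1. PGR was above PGRMC2 in 6 and PGRMC2 above NR3C1 in 7 of 12 libraries, so these 3 neighbours did not separate.

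The FPKM of a row divides its counts by the length of the assembled transcripts. Calculated from the counts and the table totals, this length came to 105 kb for the joined ESR1 row, 29.1 kb for PGR, 12.1 kb for NR3C2 and 2.78 kb for ESR2, up to a factor shared by all rows. The order by FPKM therefore rests on how each locus was assembled.

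**Figure D3:**
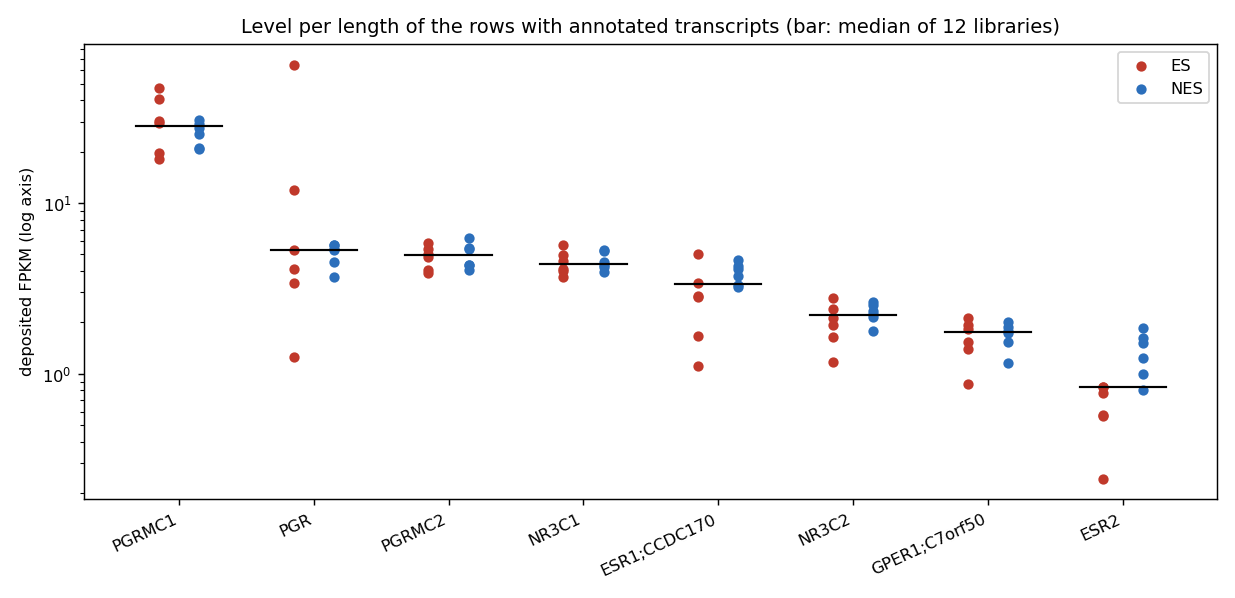
Deposited FPKM (log axis) of the rows that hold each receptor's annotated transcripts, in ES and NES libraries, ordered by mean over 12 libraries (bar: median). PGRMC1 is highest by median and ESR2 lowest, and PGR spans 1.25 to 64.7 FPKM within ES.

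Several receptor genes were paired with rows on the opposite strand within the same span. The opposite-strand row with the most counts held 21.0 to 28.4% as many as the joined annotated row at ESR1, 6.00 to 10.3% (MSTRG.23325) at PGR, 81.8 to 133% (MSTRG.13231) at NR3C1 and 749 to 972% at NR3C2. ESR1 had 2 more such rows, with medians of 9.52% (MSTRG.225) and 6.33% (MSTRG.226), and PGR had 1 more, with a median of 0.42% (MSTRG.23326). The PGR partner was highest in the same library as PGR: it held 217 CPM in ES1 and 3.08 to 21.0 CPM in the other ES libraries, against 9.64 to 13.8 CPM in NES, with a log2 difference of 1.95 ± 0.87 (adjusted p = 0.289). The NR3C1 partner differed by 0.16 ± 0.13 on the log2 scale (adjusted p = 0.565). The strand setting of the authors' counting is not given in the sources used here, so RNA of a receptor gene and of an antisense partner cannot be told apart.

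**Figure D4:**
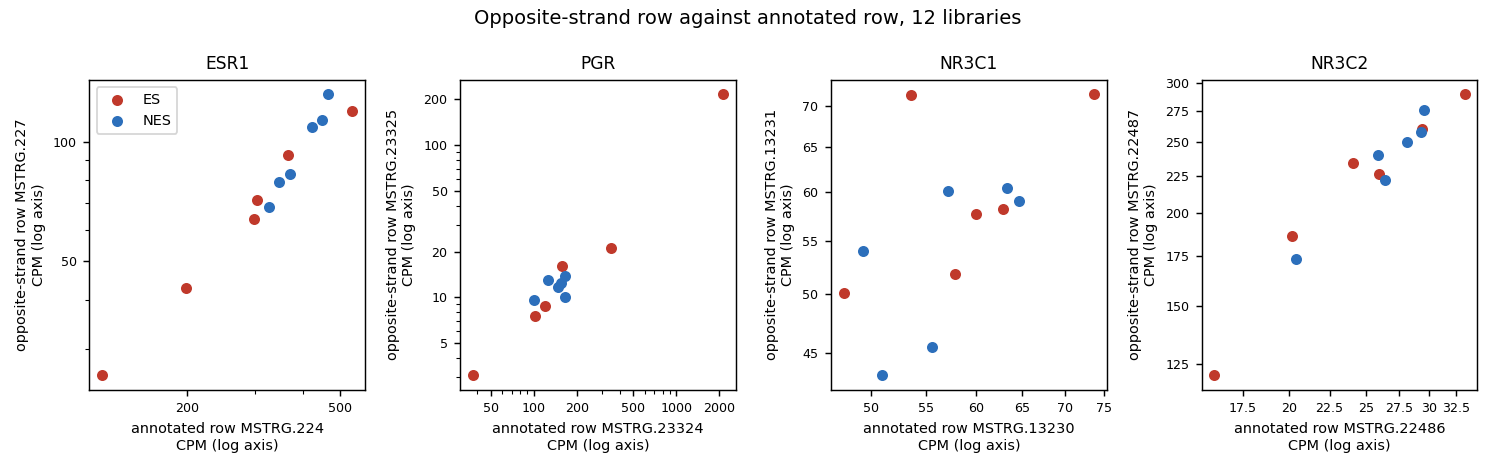
CPM of the opposite-strand row against CPM of the annotated row (both log axes) in the 12 libraries for ESR1, PGR, NR3C1 and NR3C2. The ratio of both rows stays within 21.0 to 28.4% at ESR1, 6.00 to 10.3% at PGR, 81.8 to 133% at NR3C1 and 749 to 972% at NR3C2, and ES1 stands apart at PGR in both.

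The loci whose log2 CPM followed a receptor most closely over the 12 libraries were sought among 7976 protein-coding loci with a name of their own and a mean FPKM of at least 1. They are a description without a test, since the best of many were taken. For ESR2 they were BAHCC1 (r = 0.93, rho = 0.90), PRDM6 (r = 0.93, rho = 0.85), ZWINT (r = 0.93, rho = 0.88) and NWD2 (r = 0.92, rho = 0.85), with r of 0.81 to 0.90 without the libraries farthest from the median, ES3 and NES2. For the chosen ESR1 row they were GRIK5 (r = 0.94), CALM3 (r = 0.93), LRFN5 (r = 0.91) and TP53BP1 (r = 0.90), with r of 0.68 to 0.91 without ES1 and ES3. For NR3C1 they were BCL2L11 (r = 0.90), ITPK1 (r = 0.89), NDRG1 (r = 0.88) and IL6R (r = 0.88), with r of 0.78 to 0.81 without ES3 and ES6. For PGR they were GNE, CDO1, ZNF219 and GPBP1 (r = 0.94 to 0.95), but the rank correlations were 0.48 to 0.70 and r was 0.56 to 0.83 without ES1 and ES3, so those likenesses rest on these libraries in good part.

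Genes through which steroid receptors act were described from lists of their chaperones, coregulators and targets. Chaperones keep receptors able to bind steroid. Of 12 listed chaperones and immunophilins 8 were tested, 0 were called, and their median log2 difference was -0.21, against 0.043 over all tested loci; it was -0.088 without ES3 and -0.11 without NES6. FKBP4, a chaperone partner of PGR, had 17.8 to 56.1 CPM in ES (median 31.1) and 27.6 to 54.8 CPM in NES (median 42.0), a log2 difference of -0.27 (adjusted p = 0.638). That was -0.15 without ES3, -0.18 without NES6 and -0.47 without ES6. PTGES3, the co-chaperone p23, was lower in DESeq2 (log2 -0.43 ± 0.13, adjusted p = 0.0251) and not called in edgeR (adjusted p = 0.110); it was chosen after its value was seen. It had 77.0 to 115 CPM in ES (median 92.9) and 107 to 156 CPM in NES (median 124), with 5 of 6 ES libraries below every NES library.

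Of 18 coregulators 11 were tested and 0 called, with a median log2 difference of 0.012 and a range of -0.18 to 0.61. NCOA1, a coactivator, had 24.1 to 44.5 CPM in ES (median 33.7) and 32.0 to 38.5 CPM in NES (median 35.4), and the ligand-dependent corepressor NRIP1 435 to 693 CPM in ES (median 510.4) and 456 to 666 CPM in NES (median 549). Their log2 differences were -0.093 (adjusted p = 0.810) and -0.0996 (adjusted p = 0.753), with ranges of -0.19 to -0.020 and -0.20 to -0.045 with a library left out.

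Of 12 estrogen response genes 10 were tested, 0 were called and the median log2 difference was 0.082. The median was -0.010 in limma, where all tested loci had a median of -0.051, against 0.043 in edgeR. It was -0.076 without ES1, 0.22 without ES3 and -0.063 without ES1, ES3 and ES6. Without ES6 only 9 passed the FPKM filter, with a median of 0.015. GREB1, an estrogen receptor cofactor and target in human breast cells, was abundant, with 270.3 CPM in ES3 and 1824 to 3557 CPM in the other ES libraries, against 1625 to 3306 CPM in NES. Its log2 difference was -0.0030 ± 0.42 (adjusted p = 0.998), between -0.24 (without ES1) and 0.22 (without ES3) with a library left out.

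Of 14 genes that depend on PGR in ovulating follicles of mice, or act with it there, 7 were tested. PPARG fell, against 0.793% of all loci called lower. PPARG (MSTRG.5658, chromosome 13, 68301566 to 68433963), a nuclear receptor for fatty acid ligands, had 8.88 to 25.5 CPM in ES (median 15.8) and 28.2 to 69.3 CPM in NES (median 36.0). The groups did not overlap, as for 0.906% of tested loci in that direction. It changed by -1.41 ± 0.30 on the log2 scale (edgeR, adjusted p = 0.0487), a call that 9 of 22 alternative fits kept and that was lost (adjusted p = 0.0528 to 0.129) on leaving out any library other than ES5 or NES6. With the replicate block its adjusted p was 0.0859. ADAMTS1, a matrix protease of the ovulating follicle, had 118 to 494 CPM in ES (median 227) and 107 to 234 CPM in NES (median 165), a log2 difference of 0.59 ± 0.29 (adjusted p = 0.343) that was 0.27 without ES1. The list's median log2 difference was 1.06, with 6 of 7 positive, and 0.67 without ES4 and 0.37 without ES1, ES3 and ES6. Without ES1 only 6 of the 7 passed the FPKM filter, 5 of them positive, with a median of 0.80. The transcription factor RUNX2 was called in DESeq2 (1.66 ± 0.53, adjusted p = 0.0363) and not in edgeR (adjusted p = 0.180); it was chosen after its value was seen and was highest in ES4 at 1635 CPM.

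All 15 glucocorticoid response genes were tested and 14 had positive log2 differences, against 56.2% of all loci. KLF9 rose. The list's median was 0.82, and 0.58 without ES4, 0.62 without ES1 and 0.56 without ES1, ES3 and ES6. KLF9 (MSTRG.1760, chromosome 1, 223711411 to 223748633), a Krüppel-like transcription factor that glucocorticoids induce, had 72.7 to 115 CPM in ES (median 93.3) and 36.0 to 65.9 CPM in NES (median 51.0). The groups did not overlap, as for 0.509% of tested loci in that direction. Its log2 change was 0.88 ± 0.18 (edgeR, adjusted p = 0.0428), a call that 8 of 22 alternative fits kept and that was lost (adjusted p = 0.0507 to 0.114) on leaving out any library other than NES6. With the replicate block its adjusted p was 0.128.

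FKBP5, an immunophilin induced by glucocorticoids and progestins, had 230.3 (ES3) to 1265 CPM (ES4) in ES with a median of 633, against 272 to 498 CPM in NES with a median of 323. Its log2 difference was 0.87 ± 0.36 (adjusted p = 0.257), and 0.58 without ES4. TSC22D3, the glucocorticoid-induced leucine zipper, had 46.0 (ES3) to 185 CPM (ES4) in ES with a median of 139, against 61.5 to 113 CPM in NES with a median of 72.6, a difference of 0.73 ± 0.28 (adjusted p = 0.224). For both, ES3 was below every NES library while ES1, ES2 and ES4 were above all of them. The 4 tested mineralocorticoid response genes, of 7 listed, were all positive (median 0.78), against 56.2% of all loci, and none was called. They include FKBP5, TSC22D3 and SGK1, which are also in the glucocorticoid list, so the 2 lists are not separate.

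Of 8 enzymes that set the local supply of active glucocorticoid and estrogen, 4 were tested and 0 called. HSD11B1, which regenerates cortisol from cortisone, had 6.69 to 14.1 CPM in ES (median 9.35) and 6.46 to 13.4 CPM in NES (median 8.77), a log2 difference of 0.072 (adjusted p = 0.903), between -0.076 (without ES6) and 0.21 (without NES6) with a library left out. HSD11B2, which inactivates cortisol, had 1.47 to 6.88 CPM in ES (median 3.17) and 1.44 to 2.88 CPM in NES (median 2.29), a difference of 0.59 ± 0.34 (adjusted p = 0.423) that was 0.26 without ES6. Of 7 membrane progestin receptors and PGRMC relatives 5 were tested and 0 called. PAQR7, membrane progestin receptor alpha, had 3.95 to 15.5 CPM in ES (median 6.92) and 2.51 to 7.42 CPM in NES (median 4.34), a difference of 0.80 ± 0.35 (adjusted p = 0.279) that was 0.48 without ES4.

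**Figure D5:**
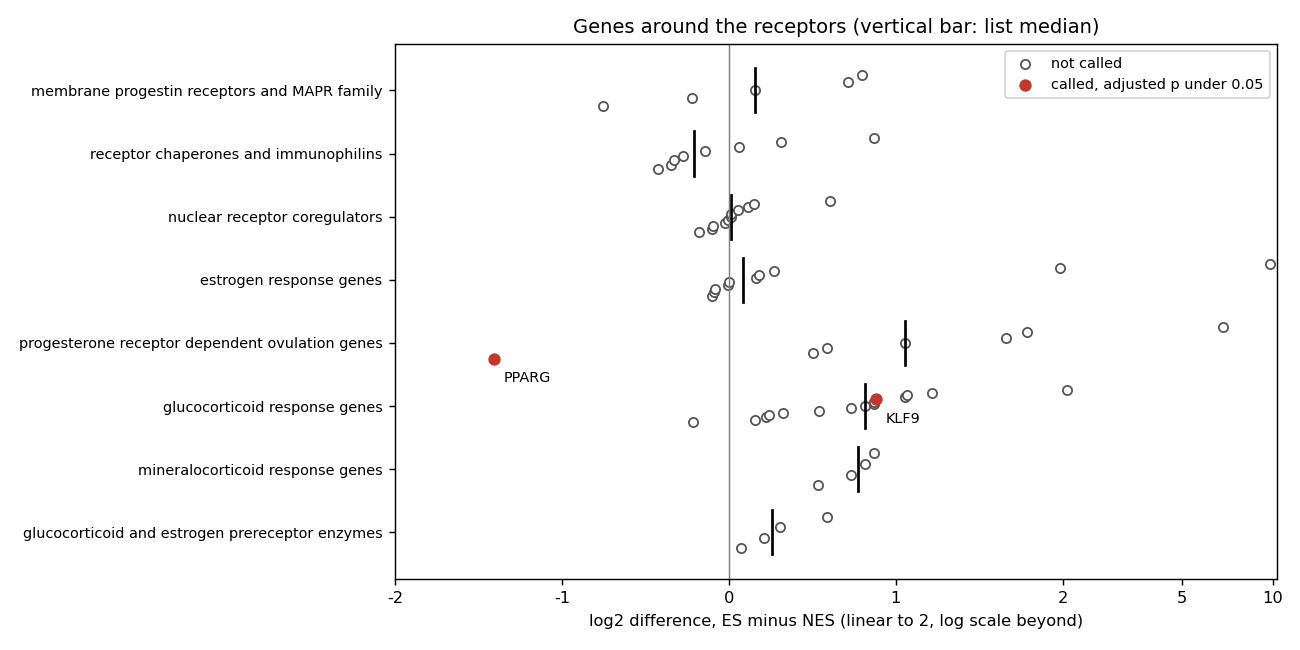
Log2 difference, ES minus NES, of the tested genes in 8 lists around the receptors; filled points were called, open points were not, and the vertical bar is the list median. PPARG fell and KLF9 rose, the coregulators centre on 0.012 and the glucocorticoid response genes on 0.82; the point farthest right is TFF3, a fitted value for a gene with no count in NES and no bound.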

How the data were processed

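Ovary RNA was isolated with Trizol and turned into strand-specific dUTP libraries, per the labels' protocols. Per the submitters' processing notes, cutadapt, FastQC, HISAT2, TopHat and build Sscrofa11.1 were used. Tool versions, the counter and whether it used strand: not given in the sources used here. Raw counts and FPKM values per locus were deposited by the authors, per the file headers. Groups and numbers came from sample titles, and columns named Non_ES were matched to NES titles of the same number.

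The members and lists were chosen with earlier results of these data known. As counts were present, edgeR's quasi-likelihood test on counts (TMM, no covariate) was used. SE was taken as log2 difference over root F, and normal 95% intervals from it. For genes outside the 8 receptors, the named row with a protein-coding transcript and the highest mean count was used, and genes found only in joined rows were left out. Gene symbols came from the table; 1036 of 5465 bare Ensembl names matched a name table. Named genes were the receptors, pathway genes fixed by name (HSD17B1 had no row, and 1 is not reported here), called list members and the 4 loci most like ESR1, ESR2, PGR and NR3C1. Alternatives were median-of-ratios factors, no filter, a mean FPKM of at least 1, DESeq2, limma on log2(FPKM + 0.5, 0.1 or 1), a replicate block, each library left out and other rows for a symbol.

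On simulated counts for this comparison (20421 loci, 50 changed per fold), edgeR called 3 of those changed 1.5-fold, 21 of those changed 2-fold, 40 (3-fold) and 43 (4-fold), with 3 false calls. A locus with 0 counts has an upper limit of 3 counts, 0.0435 to 0.0516 CPM, for counting error only. Fits used edgeR 4.0.16, DESeq2 1.42.0 and limma 3.58.1 under R 4.3.3; tables and plots used scipy 1.17.1, numpy 2.4.6, pandas 2.3.3 and matplotlib 3.10.9 under Python 3.11.15.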

Additional observations from a re-analysis of the deposited data

Results flagged for a closer look

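PGR in ES1, at 2135 CPM, stood far from the other ES libraries, with a gap to the next of 0.851 of the group's range, above Dixon's 95% critical value for 6 samples. It was the only such value in 22 groups of 6 libraries checked; chance alone marks about 1 group in 20. The groups checked did not cover every receptor row. The opposite-strand PGR row MSTRG.23325 also had a single high library, ES1 at 217 CPM against 3.08 to 21.0 CPM in the other ES libraries. MSTRG.23326, which did not pass the FPKM filter, had 13.4 CPM in NES4 and 0.37 to 1.33 CPM in the other NES libraries.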

How the results depend on the processing

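The number of loci called over the whole table moved with the fit: 193 in edgeR, 28 with no filter, 1065 in DESeq2, 330, 322 and 337 in limma with pseudocounts of 0.5, 0.1 and 1, 3 without ES1, ES3 and ES6, and 0 to 417 with a library left out. Title numbers are not stated to mark litters, and deviations of same-numbered libraries correlated at -0.035 to 0.23, with 3 of 6 ES libraries closest to their own number; a replicate block left 0 loci called (2708 at an unadjusted p under 0.05, against 3328 without it). With the block KLF9 (adjusted p = 0.128) and PPARG (0.0859) were no longer called, as with no filter (0.0616 and 0.0636).

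Of the receptors, 1 was called with DESeq2 (ESR2) and 0 in the other 21 alternatives. ESR2 could not be fitted with a mean FPKM of at least 1, which it does not reach. Leaving out ES1, ES3 and ES6, chosen after seeing the data, gave log2 differences of -0.18 for PGR, 0.15 for NR3C2, -0.047 for PGRMC2, 0.15 for NCOA1 and 0.092 for GREB1, the opposite sign to the fit of all libraries. In limma (pseudocounts 0.5, 0.1 and 1) NR3C1 was at -0.033, -0.036 and -0.029, PGRMC2 at -0.033, -0.035 and -0.030, and HSD11B1 at -0.019, -0.027 and -0.014. The median over all tested loci was 0.043 in edgeR and -0.051, -0.066 and -0.041 in these limma fits, so the whole table stood lower there. With a library left out, signs changed within ranges of -0.016 to 0.12 for NR3C1, -0.20 to 0.0098 for NR3C2, -0.24 to 0.22 for GREB1 and -0.076 to 0.21 for HSD11B1. The cause was not tested. None of these was called in any fit. The log2 ratio of ESR2 to the chosen ESR1 row differed by -0.32 with a pseudocount of 0.1 (exact permutation p = 0.335), and 0 of 16 alternatives for the ratio passed. ESR2's few counts limit its precision.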
